A study of Homo sapiens with 4 samples.

Results

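Message for the cytosolic DNA and RNA sensing pathway was examined in HEK293 cells through 10 genes. These were chosen by symbol from what they are known to do, though with earlier results of these data known. They were 4 sensors (CGAS, RIGI, IFIH1 and DHX58), 2 adaptors (STING1 and MAVS), 2 kinases (TBK1 and IKBKE) and 2 transcription factors (IRF3 and IRF7). All 10 were matched among the 17217 named genes of the arrays. By the detection rule of the study, the adaptors STING1 and MAVS, the kinase TBK1, the factor IRF3 and the RNA sensor IFIH1 lay above the baseline on all 4 arrays. CGAS, RIGI, DHX58 and IKBKE lay below it on all 4, and IRF7 lay above it on 1 array and below it on the other three.

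HEK293 is an immortalized human embryonic kidney line that was transformed with adenovirus DNA and is in wide use for expressing cloned proteins. The samples were 4 biological replicates of 1 untreated group, grown in DMEM with serum, and the study's methods describe separate plates and RNA extractions. Total RNA of each was read on 1 NimbleGen array of long oligonucleotide probes in a single colour, as log2 intensity, with 3 probes to a target. There was no second condition, so every comparison below is with control genes or with the rest of the array, and the values hold for unstimulated cells of 1 line.

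Cells watch their cytosol for nucleic acid that does not belong there. The enzyme cGAS, made by CGAS, binds double-stranded DNA and makes a cyclic dinucleotide that activates STING, an adaptor of the endoplasmic reticulum. RIG-I, MDA5 and LGP2, made by RIGI, IFIH1 and DHX58, are related RNA helicases that bind viral and other double-stranded RNA, and RIG-I and MDA5 signal through MAVS on the outer membrane of mitochondria. Both arms meet at the kinases TBK1 and IKK-epsilon, made by IKBKE, which phosphorylate IRF3 and IRF7, and these enter the nucleus and switch on type I and type III interferon genes. Secreted interferon acts back through its receptor and raises many genes, and RIGI, IFIH1, DHX58 and IRF7 are textbook members of that induced set.

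A gene's level is log2 of the mean linear intensity of its probes. Its distance is that level minus the array's baseline, which the study set at the mean plus 2 SD of seminal protein genes thought silent in the line. A gene was called detected where the mean distance over the 4 arrays was above 0. For replicates 1 to 4 the baseline stood at 9.47, 9.94, 10.69 and 10.32, and it moves every gene of an array together. A stricter test asked by limma, one-sided and with Benjamini-Hochberg adjustment over all 17217 genes, whether the distance exceeded 0. All genes took 1 common standard error, 0.351, and the error of the baseline did not enter, so small p-values are to be read with the spread of the arrays beside them; with 4 arrays the smallest p of an exact sign-flip test is 0.0625. Replicates 1 and 2 shared 1 distribution of values and replicates 3 and 4 another, and in either pair alone the number of detected members was 5. Probes differ in affinity, so a level was not set against that of another gene as an amount of message, and in bulk RNA fewer expressing cells and less RNA per cell cannot be told apart.

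Of the 10 genes, 5 were detected, beside 52.7% of all named genes. Above the baseline on all 4 arrays were 5 of the 10, beside 45.0% of all genes, and below it on all 4 were 4 of the 10, beside 39.8%. The limma test called 4 of the 10, beside 45.9%. These shares were near those of all genes, so the count itself is no result about the pathway, and what follows is which members lay on which side. The median distance of the 10 was -0.32, against 0.26 over all genes.

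**Figure D1:**
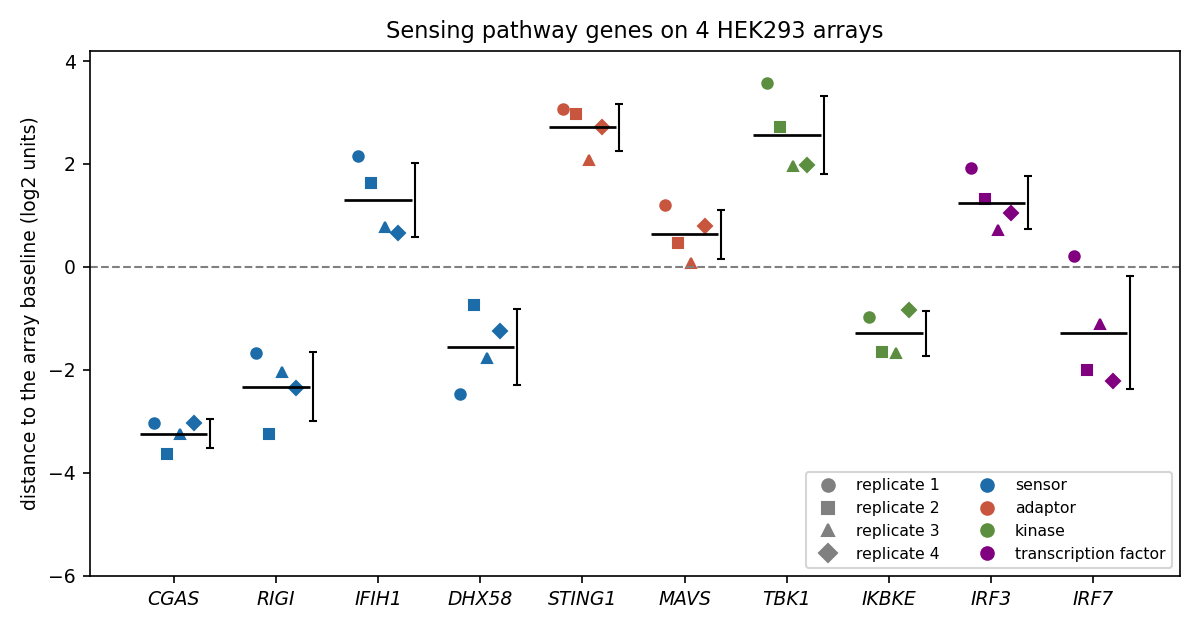
Distance to the array baseline, in log2 units, of the 10 genes on each of the 4 HEK293 arrays. Symbols are arrays, colours are roles in the pathway, the black line is the mean, the bar beside it is the SD over 4 arrays and the dashed line at 0 is the baseline. STING1 and TBK1 lay highest, CGAS lowest, and IRF7 was the only one of the 10 on both sides of the line.

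Among the sensors, CGAS gave the lowest mean distance of the 10 genes. Its level was 6.44, 6.29, 7.44 and 7.28 on replicates 1 to 4, and its distance was -3.03, -3.64, -3.25 and -3.04. All 4 arrays were low, and the mean distance was -3.24 ± 0.29 (SD, n = 4). Its 3 probes had means between 6.62 and 6.99, a range of 0.37, and 0 of the 12 probe values lay above the baseline. Olfactory receptor genes, which act in the nose, served as a second background of 364 genes. Of these, 107 (29.4%) had a mean level at or above that of CGAS. The level of CGAS was thus within the range of genes that a kidney line would not be thought to transcribe.

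RIG-I, the sensor of short RNA with a triphosphate end, was also not detected. The RIGI level was 7.79, 6.70, 8.65 and 7.97, and the distance was -1.68, -3.24, -2.04 and -2.35, with a mean of -2.33 ± 0.67 (SD, n = 4). Replicate 2 was the lowest array, at both scales. Only 17 of 364 olfactory receptor genes (4.67%) were at or above its mean level. The 3 probes did not read alike: their means were 6.24, 6.53 and 8.81, and only probe 3 had a mean above 8.02, the mean plus 2 SD of the olfactory receptor genes. None of the 12 probe values lay above the baseline. RIGI overlaps 2 long noncoding RNA genes in the GRCh38.p14 annotation, and labelling of double-stranded cDNA with random primers keeps no strand, so their message cannot be told apart from that of RIGI where a probe lies in the overlap.

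MDA5, the sensor of long double-stranded RNA, was the sole detected sensor of the 4. The IFIH1 level was 11.63, 11.57, 11.46 and 10.99 on replicates 1 to 4, and its distance was 2.16, 1.63, 0.77 and 0.67. All arrays lay above the baseline, replicates 1 and 2 further than 3 and 4, and the mean was 1.31 ± 0.72 (SD, n = 4; limma adjusted p = 0.00026). Of its 12 probe values 11 lay above the baseline, and no olfactory receptor gene reached its mean level. On replicates 3 and 4 alone the distance was 0.72, with a limma adjusted p of 0.062.

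LGP2 lacks the signalling domains of the other two helicases and tunes them. The DHX58 level was 7.00 on replicate 1 and 9.20, 8.92 and 9.07 on replicates 2, 3 and 4. The distance was -2.47, -0.73, -1.77 and -1.25, with a mean of -1.55 ± 0.74 (SD, n = 4). Replicate 1 stood apart by its level. Probe 1 read 6.46 there against 9.48, 10.00 and 9.53, and probe 3 read 7.66 against 9.92, 8.18 and 9.37, so that 2 of the 3 probes were lowest on that array. Probe 2, with values from 6.49 to 7.76, was low throughout. By mean level 6 of 364 olfactory receptor genes (1.65%) were at or above DHX58, and on single arrays the number was 67, 5, 3 and 5.

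Both adaptors were detected. The STING1 level was 12.53, 12.91, 12.76 and 13.04, and the distance was 3.07, 2.98, 2.07 and 2.72. Every array was well above the baseline, and the mean of 2.71 ± 0.45 (SD, n = 4; limma adjusted p = 3e-14) exceeded the spread between arrays. Its 3 probes agreed to within 0.77 log2 units, and 12 of 12 probe values lay above the baseline. The cells thus held message for the receptor of the cyclic dinucleotide, while message for the enzyme that makes it was at the level of the olfactory receptor background.

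MAVS lay closest to the baseline of the detected genes. The level was 10.66, 10.39, 10.77 and 11.11, and the distance was 1.19, 0.46, 0.08 and 0.79. Though positive on all 4 arrays, the mean of 0.63 ± 0.47 (SD, n = 4) did not pass the limma test (adjusted p = 0.078). Without replicate 3, where it barely cleared the baseline, it was 0.81 and did (limma adjusted p = 0.033). Of 12 probe values 9 lay above the baseline. Probe 1 read 9.56, 7.09, 10.45 and 10.43 and was above it on 2 arrays, while probe 3 was above it on all 4.

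The kinases differed in call. TBK1, the kinase found in most cell types, had a level of 13.04, 12.66, 12.65 and 12.30. Its distance was 3.58, 2.73, 1.96 and 1.98, highest on replicate 1, and the mean was 2.56 ± 0.77 (SD, n = 4; limma adjusted p = 7e-13). All 12 probe values lay above the baseline, though the probe means spread from 11.33 to 13.56.

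IKBKE encodes the related kinase, which is best known from immune cells. Its level was 8.49, 8.29, 9.01 and 9.48, and its distance was -0.97, -1.65, -1.68 and -0.85, with a mean of -1.29 ± 0.44 (SD, n = 4). It lay below the baseline on every array and with 0 of 12 probe values above. Against the second background it was brighter, and 5 of 364 olfactory receptor genes (1.37%) were at or above its mean level. IKBKE overlaps a microRNA gene and the antisense gene IKBKE-AS1, which these probes cannot separate by strand.

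IRF3, the factor that is held ready in the cytoplasm, had the steadiest level of the 10, though not the steadiest distance. The level was 11.39, 11.25, 11.40 and 11.38, an SD of 0.07 against a median SD of 0.42 over all genes. The distance was 1.92, 1.32, 0.71 and 1.06, all above 0, with a mean of 1.25 ± 0.51 (SD, n = 4; limma adjusted p = 0.00047). The single probes were less steady than their mean: probe 2 fell to 8.68 on replicate 3, where probe 1 was at its highest, 12.65, and 10 of 12 probe values lay above the baseline. IRF3 overlaps the protein-coding gene BCL2L12, which had a distance of 1.24 ± 0.74 (SD, n = 4), and how much either gene's message adds to the other's probes was not tested.

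IRF7, the factor that interferon induces, was the least steady by distance. Its level was 9.69, 7.94, 9.57 and 8.10, high on replicates 1 and 3 and low on replicates 2 and 4, with an SD of 0.93. The distance was 0.22, -1.99, -1.12 and -2.22, with a mean of -1.28 ± 1.10 (SD, n = 4). Only replicate 1 lay above the baseline. IRF7 had 3 targets, and each alone gave a like mean, -1.22, -1.28 and -1.33. Within each target probe 3 was the brightest, with means of 9.97, 9.73 and 9.77 against 6.49 to 8.27 for probes 1 and 2, and it gave all 5 of the 36 probe values above the baseline. By mean level 5 of 364 olfactory receptor genes (1.37%) were at or above IRF7.

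**Figure D2:**
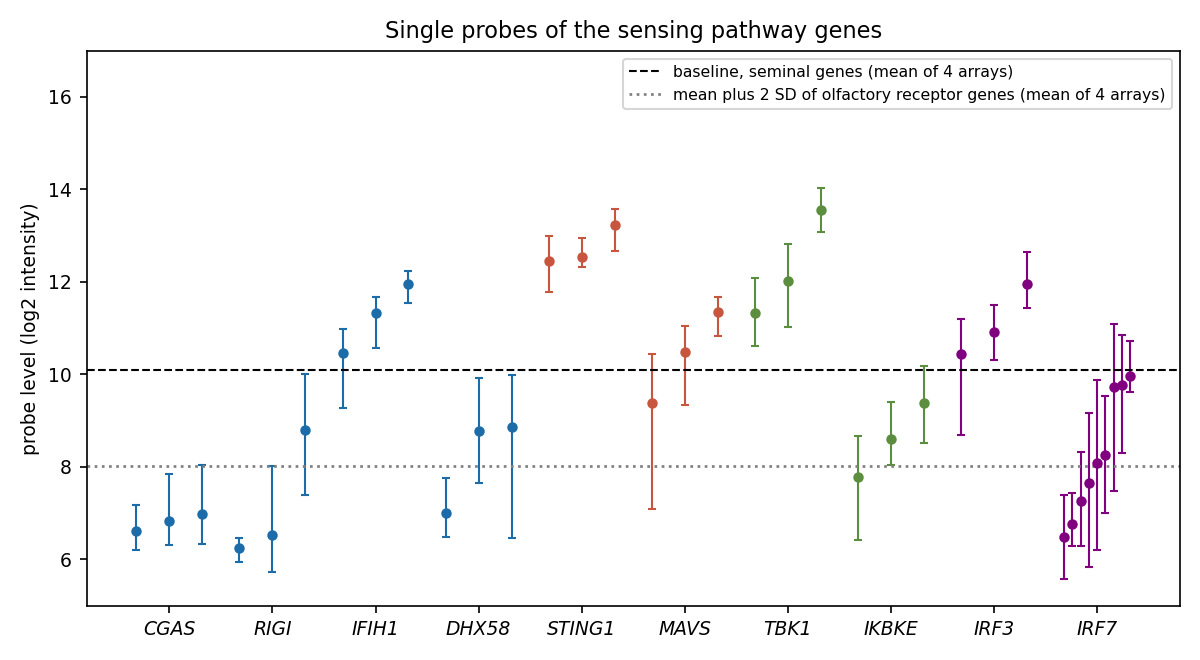
Mean level of each probe of the 10 genes over 4 arrays, in log2 intensity, with bars from the lowest to the highest array. The dashed line is the study's baseline and the dotted line the mean plus 2 SD of 364 olfactory receptor genes, 8.02 log2 units, both as means of 4 arrays. The CGAS probes all had means under the dotted line, the STING1 and TBK1 probes all stood above the dashed line, the probes of RIGI, DHX58, IKBKE and IRF7 fell on both sides of the dotted line, and those of MAVS on both sides of the dashed line.

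The call of several members turned on which control genes were used. Of the seminal genes, SPATA5 (now AFG2A) and SPATA13 had mean levels of 9.97 and 9.72. The other matched ones lay between 6.53 and 7.25. Without SPATA5 and SPATA13 the baseline fell from 10.10 to 7.78 as a mean of 4 arrays. DHX58, IKBKE and IRF7 then lay above it, and RIGI came to 0.000274. With olfactory receptor genes in place of the seminal genes, again at mean plus 2 SD, the baseline fell from 10.10 to 8.02 as a mean of 4 arrays. Detected members then rose to 8 of 10, beside 71.4% of all genes, and those still below were CGAS and RIGI. DHX58, IKBKE and IRF7 moved to 0.53, 0.80 and 0.81 above that baseline. These 3 genes therefore had signal over most olfactory receptor genes but under the study's threshold. STING1 and TBK1 were detected, and CGAS was not, under all 18 alternatives run. Those that changed only the limma test left the distances as they were, so detection could not change there.

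**Figure D3:**
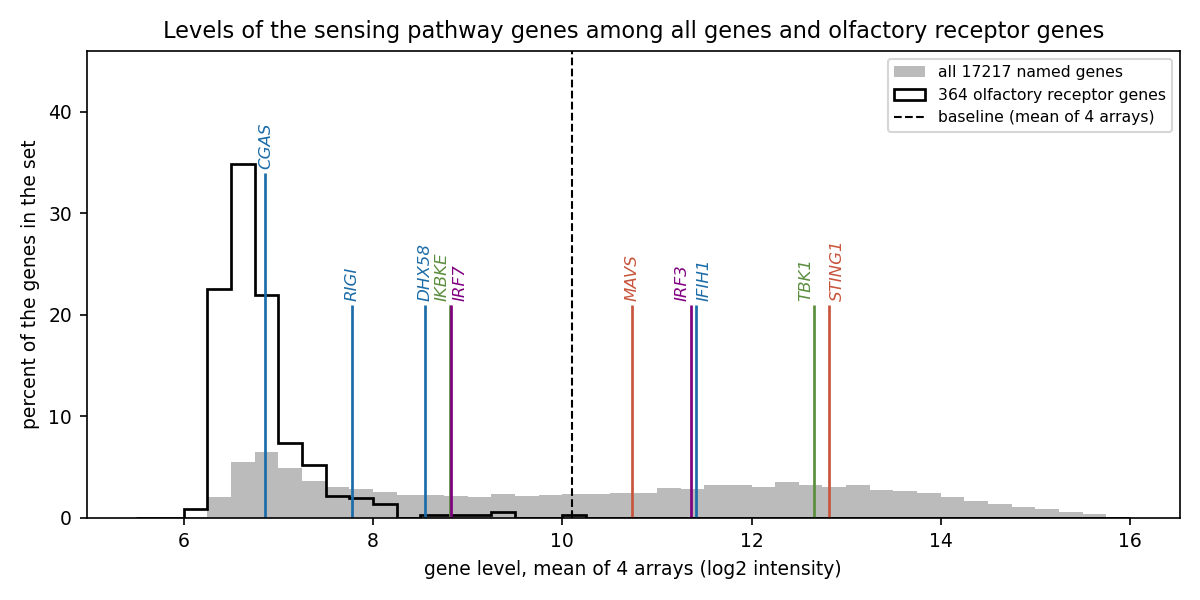
Share of genes, in percent of each set, by mean level over 4 arrays in bins of log2 intensity. Grey bars are all 17217 named genes, the black outline is the 364 olfactory receptor genes, the dashed line is the study's baseline, and coloured lines mark the mean level of each member by role, with heights chosen only for legibility. CGAS sat inside the olfactory receptor peak, and RIGI, DHX58, IKBKE and IRF7 sat between that peak and the baseline.

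Around the 10 genes, 134 further genes were read from 12 lists of partners, neighbours and downstream genes. Of these, 91 (67.9%) were detected, beside 52.7% of all named genes, with a median distance of 1.25. Medians of the lists of partner proteins, clearance enzymes and interferon receptors lay above that of all genes (0.26), and those of interferons, other interferon regulatory factors, effectors of double-stranded RNA and interferon-stimulated genes lay below it. The counts describe the lists and were not tested, since the genes of a list were picked by hand and some serve many other processes.

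Partners of the sensors and adaptors were mostly present as message. Of 14 cofactors of the RNA sensors all were detected, with a median of 3.03. YWHAE and YWHAH, the 14-3-3 proteins that escort RIG-I and MDA5, stood at 5.57 ± 0.64 and 4.62 ± 0.90 (SD, n = 4). PPP1CA, a catalytic subunit of the phosphatase that removes inhibitory phosphates from both sensors, stood at 4.76 ± 0.62 and LSM14A at 4.61 ± 0.69 (SD, n = 4). TRIM25, the ubiquitin ligase of RIG-I, was at 3.12 ± 0.53 (SD, n = 4), beside a RIGI message below the baseline. DDX60 had the smallest distance of the list, 0.58 ± 0.97 (SD, n = 4).

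Of 16 partners of MAVS 14 were detected, with a median of 1.40, and limma called 11. PCBP2, which directs MAVS to destruction, led at 5.47 ± 0.63 (SD, n = 4). It was followed by RNF5 at 3.24 ± 0.68, TOMM70, the import receptor that docks TBK1 and IRF3 at mitochondria, at 3.12 ± 0.63, and RIPK1 at 3.11 ± 0.44 (SD, n = 4). Several other partners of MAVS lay within 1 SD of the baseline: TRAF3 at 0.33 ± 0.68, FADD at 0.31 ± 0.73, TRADD at 0.05 ± 0.37, NLRX1 at -0.22 ± 0.53 and ITCH at -0.36 ± 0.72 (SD, n = 4).

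Of 14 partners of STING 13 were detected, with a median of 2.95. COPA, SURF4 and TMED2, which sort STING between the endoplasmic reticulum and the Golgi, stood at 4.73 ± 0.83, 4.67 ± 0.55 and 4.64 ± 0.73 (SD, n = 4). SEC24C, a coat protein of vesicles leaving the endoplasmic reticulum, was at 4.38 ± 0.48 (SD, n = 4). RHBDF2, which recruits a deubiquitinase to STING, was the undetected one, at -0.70 ± 0.80 (SD, n = 4). TOLLIP, at 0.63 ± 0.90, also lay within 1 SD of the baseline.

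All 7 adaptors of TBK1 were detected, with a median of 1.51. DDX3X, a helicase that TBK1 phosphorylates, was at 5.01 ± 0.57, TAX1BP1 at 4.02 ± 0.66, OPTN at 1.99 ± 0.84 and IKBKG, the scaffold subunit NEMO, at 1.51 ± 0.61 (SD, n = 4). AZI2, at 0.37 ± 0.62, was within 1 SD of the baseline. Thus message for the scaffolds of TBK1 was detected together with that of TBK1 itself.

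Other proteins known to bind cytosolic DNA were detected in 9 of 12 cases, with a median of 2.89. The largest distances belonged to genes that also repair or package nuclear DNA: XRCC6 at 5.25 ± 0.69, XRCC5 at 4.23 ± 0.74, PRKDC at 4.13 ± 0.54 and HMGB1 at 4.00 ± 0.87 (SD, n = 4). IFI16, which binds DNA and can act with cGAS and STING, had a level of 12.31, 12.85, 12.54 and 12.46 and a distance of 2.44 ± 0.53 (SD, n = 4). AIM2, which starts an inflammasome rather than interferon, and ZBP1, which senses left-handed nucleic acid, were below the baseline on all 4 arrays, at -3.27 ± 0.67 and -2.66 ± 0.41 (SD, n = 4). MRE11 lay at the baseline, -0.10 ± 0.34 (SD, n = 4).

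RNA polymerase III can copy AT-rich DNA in the cytosol into RNA that RIG-I reads. Of 10 of its subunits 9 were detected, with a median of 2.53, and the largest distances were 4.07 ± 0.57 for POLR3C, 4.07 ± 0.97 for POLR3K, 3.61 ± 0.54 for POLR3A and 3.40 ± 0.49 for POLR3E (SD, n = 4). POLR3G was undetected at -0.45 ± 1.13 and POLR3F was detected at 0.97 ± 1.10 (SD, n = 4), both within 1 SD of the baseline. All 7 genes of nucleic acid clearance, which keep self DNA and RNA from the sensors, were detected, with a median of 2.67. ADAR, the RNA-editing enzyme, led at 4.77 ± 0.61, and RNASEH2A followed at 4.08 ± 0.47, DNASE2 at 2.85 ± 0.71 and RNASEH2B at 2.67 ± 1.10 (SD, n = 4).

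**Figure D4:**
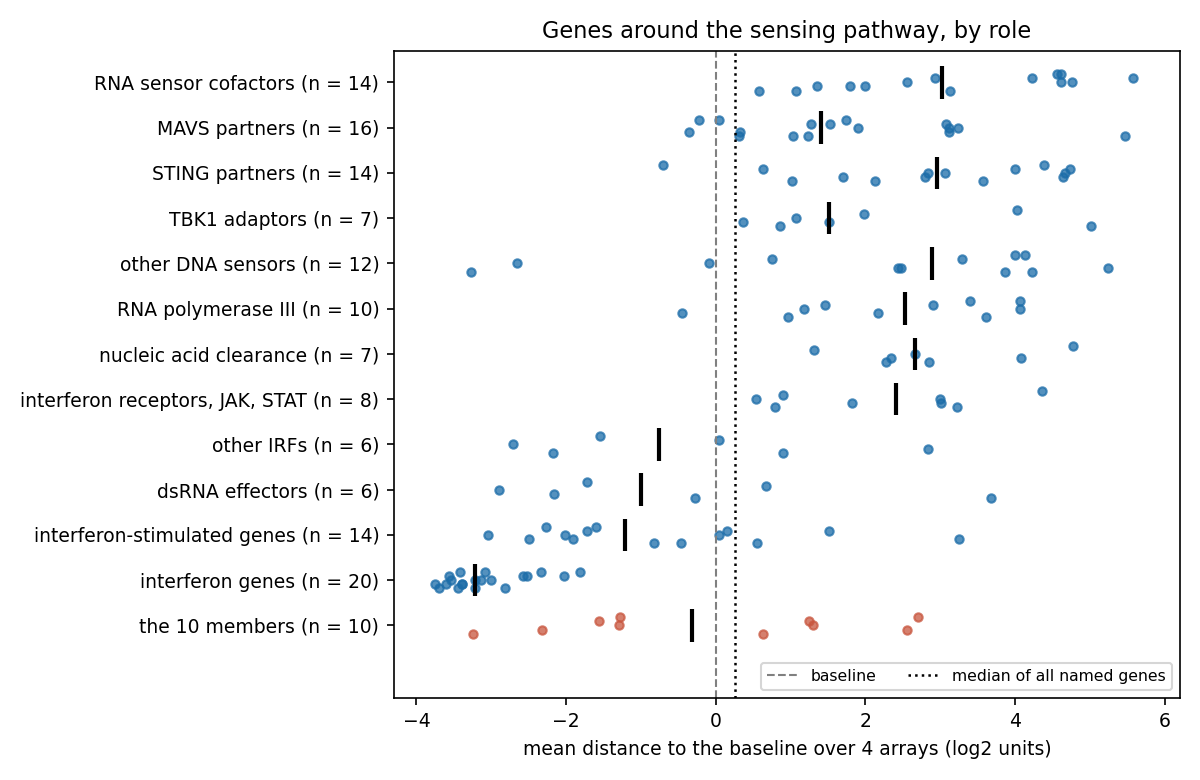
Mean distance to the baseline over 4 arrays, in log2 units, of each gene in 12 lists around the pathway and of the 10 members (red). Each point is a gene, the thick black tick is the list's median, the dashed line is the baseline and the dotted line the median of all named genes, 0.26; the vertical offset within a row has no meaning. Partner lists lay mostly to the right, and all 20 interferon genes to the left.

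Message for the pathway's end products was not detected. Of 20 genes for type I and type III interferons 0 were detected, all 20 lay below the baseline on each array, and limma called 0 of them, with 0 also at an unadjusted p below 0.05. Their median distance was -3.22. IFNB1, the first interferon gene that IRF3 switches on, had a level of 6.01, 6.16, 6.59 and 7.42 and a distance of -3.56 ± 0.51 (SD, n = 4). The interferon alpha genes are near-identical copies, so their single values are uncertain. On the receiving side, 8 of 8 genes for interferon receptors, their kinases and the factors these activate were detected, with a median of 2.41. Of these, limma called 7. JAK1 stood at 4.36 ± 0.52, TYK2 at 3.22 ± 0.52 and STAT2 at 2.99 ± 0.80 (SD, n = 4). The receptor chains lay nearer to the baseline, with IFNAR2 at 1.83 ± 0.50, IL10RB at 0.90 ± 0.81 and IFNAR1 at 0.79 ± 0.58 (SD, n = 4). IFNLR1, the lambda receptor, was within 1 SD of the baseline at 0.54 ± 0.60.

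Of 6 other interferon regulatory factors 3 were detected, and limma called 2. IRF2 stood at 2.84 ± 0.59 (SD, n = 4). IRF9, which binds DNA in a complex with STAT2, stood at 0.89 ± 1.25, with levels of 12.08, 10.25, 11.62 and 10.04, again higher on replicates 1 and 3. IRF1, IRF4 and IRF8, which are best known from immune cells, were below the baseline on all 4 arrays.

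Of 6 effectors that act on double-stranded RNA directly 2 were detected. EIF2AK2, the kinase PKR that halts translation, stood at 3.68 ± 0.69 (SD, n = 4) with a level between 13.53 and 13.94. The oligoadenylate synthetase OAS3 averaged 0.68 ± 1.93 (SD, n = 4), but its levels were 12.52, 9.24, 12.13 and 9.24, so that it was above the baseline on replicates 1 and 3 and below it on the others. OAS1, OAS2 and OASL were undetected.

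Of 14 interferon-stimulated genes 5 were detected, with a median distance of -1.22, and limma called 2. The called genes were USP18, which damps interferon signalling, at 3.25 ± 0.56 and IFI6 at 1.51 ± 1.12 (SD, n = 4). IFIT1, IFIT5 and IFIT3 lay within 1 SD of the baseline, at 0.55 ± 0.64, 0.15 ± 0.81 and 0.05 ± 1.50, as did MX1 at -0.47 ± 1.01 and IFI44L at -0.83 ± 1.28 (SD, n = 4). IFIT2 averaged -1.90 ± 2.00 (SD, n = 4), with levels of 9.78, 6.14, 9.95 and 6.95. Those of RSAD2 were 9.38, 6.28, 9.27 and 7.42, and those of IFI44 were 9.33, 6.30, 9.21 and 6.48, high on the same arrays as IRF7.

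The median level of the 14 interferon-stimulated genes was 10.01, 8.19, 9.93 and 8.62 on replicates 1 to 4. Over all genes the median level was 10.46, 10.38, 10.45 and 10.34. Replicates 1 and 2 shared a distribution of values, as did 3 and 4, so these medians cannot show whether an array was low as a whole. The list's genes above the baseline numbered 8, 4, 4 and 2. USP18, at 13.29, 13.45, 13.22 and 13.46, did not share the pattern. Neither did IFIT5, MX2, CXCL10 and CCL5 of the same list, with IFIT5 at 10.50, 10.51, 9.91 and 10.09. The induced members IFIH1 and DHX58 did not share it either. RIGI shared it in part: its levels overlapped between those arrays, with 7.79 on replicate 1 and 7.97 on replicate 4, but its distances and its brightest probe, at 9.10, 7.40, 10.01 and 8.72, were higher on replicates 1 and 3. Genes outside the interferon response did share it: the neurofilament gene NEFM had levels of 13.57, 8.32, 13.09 and 8.08. The labels give no difference in treatment between the 4 cultures, and what set replicates 1 and 3 apart from 2 and 4 was not tested.

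**Figure D5:**
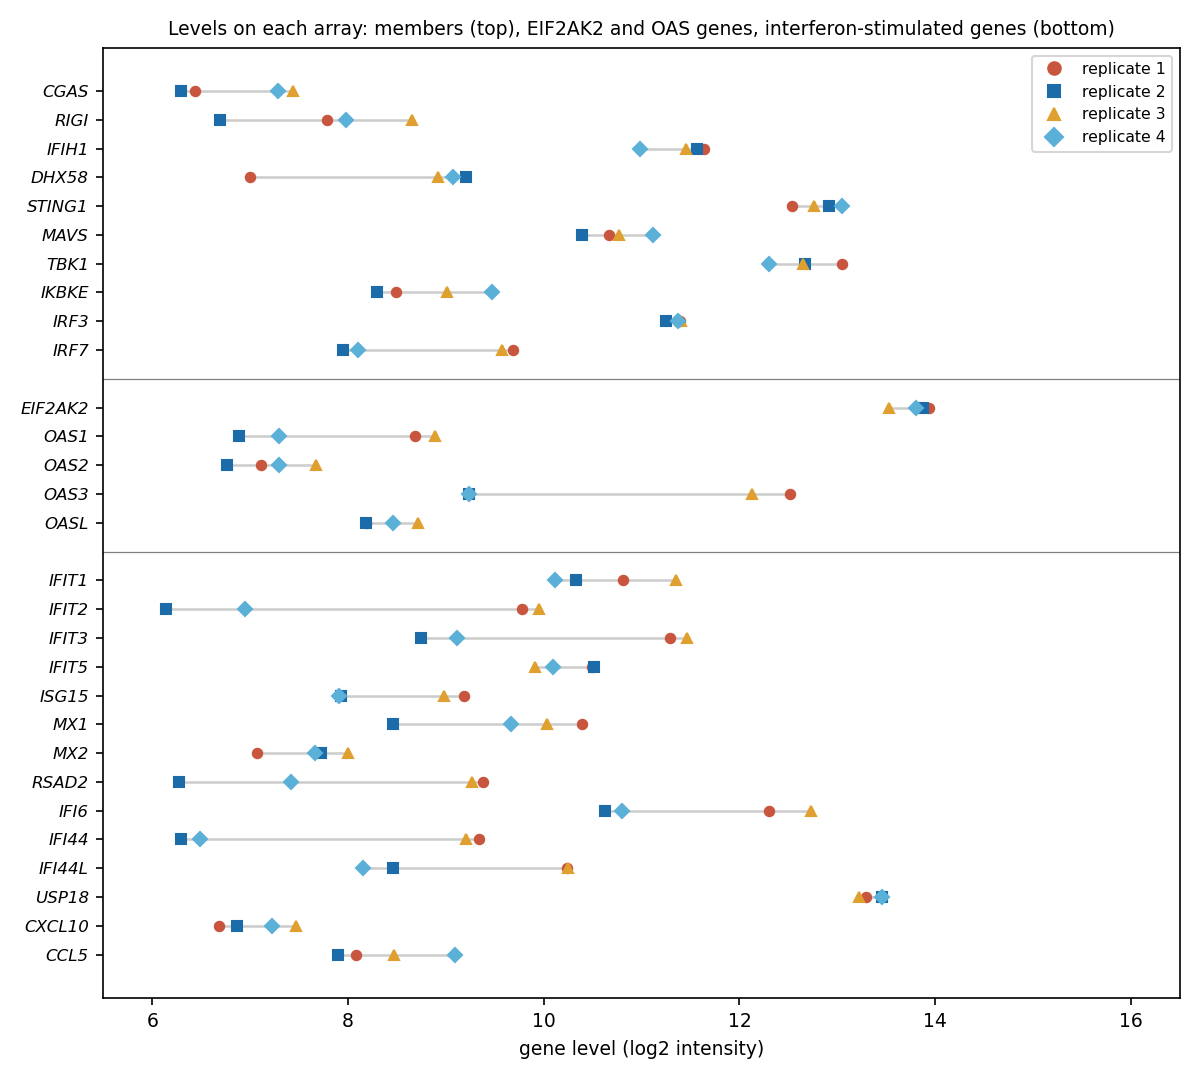
Level on each array, in log2 intensity, of the 10 members (top block), EIF2AK2 and 4 genes of the OAS family (middle) and 14 interferon-stimulated genes (bottom). Symbols are arrays and the grey line spans the lowest to the highest. IRF7, OAS3, IFIT2, IFIT3, RSAD2 and IFI44 were higher on replicates 1 and 3 than on replicates 2 and 4, while IRF3, EIF2AK2 and USP18 had nearly the same level on all 4.

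Promoter sequence was read for the 2 RNA sensors because both are known interferon targets and fell on opposite sides of the baseline, a choice made after their values were seen. RefSeq windows of 250 bases before to 50 after the gene start were given for RIGI, IFIH1, MAVS, TBK1 and IKBKE. They were searched on both strands for GAAANNGAAA, the core letters of the interferon-stimulated response element, and for the same letters with a spacing of 1, GAAANGAAA, which was added after the RIGI window had been read. The 250 bases before each start are shown 5′ to 3′ on the gene's strand, in GRCh38.p14, with matches in capitals. RIGI lies at chr9:32526197-32526446 on the minus strand and IFIH1 at chr2:162318685-162318934 on the minus strand.
RIGI: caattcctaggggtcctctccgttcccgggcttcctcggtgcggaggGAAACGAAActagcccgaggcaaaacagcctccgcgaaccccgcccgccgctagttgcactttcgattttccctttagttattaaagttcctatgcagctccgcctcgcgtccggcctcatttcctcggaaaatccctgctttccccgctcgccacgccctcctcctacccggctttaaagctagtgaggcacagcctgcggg
IFIH1: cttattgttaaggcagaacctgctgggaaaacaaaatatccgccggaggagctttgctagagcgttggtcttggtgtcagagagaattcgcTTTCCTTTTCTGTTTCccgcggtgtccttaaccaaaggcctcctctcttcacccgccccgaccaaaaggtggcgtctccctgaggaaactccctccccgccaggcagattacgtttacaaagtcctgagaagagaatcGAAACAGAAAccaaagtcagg

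The IFIH1 window held 3 matches of GAAANNGAAA, one that starts 21 bases before the gene start and an overlapping pair on the opposite strand that starts 159 and 153 bases before it. The RIGI window held none of these and 1 match of GAAANGAAA, 203 bases before the start. Of all 35116 windows 3.57% held the first motif and 3.12% the second. The windows of MAVS, TBK1 and IKBKE held neither. Among the interferon-stimulated list 11 of 11 genes with a window held GAAANNGAAA, counting IFI27, which had no level here. Among the double-stranded RNA effectors 2 of 3 held it, and among the interferon genes 5 of 17. A match describes letters in the window and says nothing of whether a factor binds there in these cells.

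The label of the cell line was checked against 10 markers reported for HEK293, of which 7 were detected, beside 52.7% of all named genes. Above the baseline on all 4 arrays were 5 of the 10, beside 45.0% of all genes. NEFM counted as detected at 0.66 ± 3.08 (SD, n = 4) but lay above the baseline on only 2 arrays. VIM stood at 5.26 ± 0.64, KRT8 at 4.80 ± 0.66 and NEFL at 4.01 ± 0.56 (SD, n = 4). Of the kidney factors, PAX2, PAX8 and LHX1 were below the baseline on all 4 arrays. WT1, also a kidney factor, was detected at 0.81 ± 1.03 (SD, n = 4), above the baseline on 3 arrays. Of 11 blood cell markers 10 were undetected, with PTPRC, the pan-leukocyte marker, at -3.50 ± 0.50. CD68, a lysosomal protein of macrophages and of many cultured cells, was detected at 1.67. Pairs of arrays correlated across genes (not independent units) with Pearson's r from 0.949 to 0.977.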

How the data were processed

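RNA of 4 untreated HEK293 cultures was measured on 1 single-colour NimbleGen array each. The authors deposited 1 log2 intensity per probe and array. RMA is named in the submitters' processing notes, and the study's methods give image extraction and a log2 transform. Ranked values agreed within 0.01 at 99.97% of positions between replicates 1 and 2, at 99.99% between replicates 3 and 4 and at 1.23% to 1.25% between other pairs, the form that normalization in separate pairs gives. No background correction of single spots is given in the sources used here.

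The table held 71998 probes. Accessions in the probe names were matched without versions to a RefSeq table (GRCh38.p14), which named 19125 of 24000 targets and 17217 genes. A target's level was log2 of the mean linear value of its probes, and a gene's level was the mean over its targets. The study's baseline (mean plus 2 SD of seminal protein genes, 10 of 11 matched) was subtracted on each array. The difference was tested against 0 with limma 3.58 in R 4.3, one-sided, with Benjamini-Hochberg adjustment at 0.05 over all named genes. The test was checked on simulated data. With the study's baseline and all 4 arrays, every gene took the same standard error, 0.351. These p-values therefore follow the mean distance and do not measure a gene's own spread between the 4 cultures. The error of the baseline did not enter them.

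The 10 members and the gene lists were chosen with earlier results of these data known. Named were all members, and from each list the detected genes (the 4 with the largest distance where over 6 were detected) and genes within 1 SD of 0; others are named where a value turns on them. TREX1, IRF5, MFN1 and SLC19A1 were not analysed here, and IFI27 only in the promoter counts. Some genes of the lists enter the counts but are not reported singly here. Alternatives were other control genes and SD multiples, other probe summaries, quantile normalization over all 4 arrays, leaving out arrays, and other settings of limma. Separate mean distances for the 3 IRF7 targets were added after the data were seen. Promoter windows came from RefSeq. The number of arrays limits the precision, and spot background and saturation were not examined.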

Additional observations from a re-analysis of the deposited data

Results flagged for a closer look

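In 5 cases 1 array lay far from the other 3 of the group, by the ratio of the gap to the whole range against Dixon's critical value for 4 samples. The levels and distances of 77 named genes were tested, 154 values in all, and chance alone flags about 1 in 20 groups. The DHX58 level was low on replicate 1, with a ratio of 0.873, at 7.00 against 8.92 to 9.20 on the others. The IRF3 level was low on replicate 2, with a ratio of 0.836, though its whole spread was small (SD 0.07, n = 4). The TOMM70 level was high on replicate 2, with a ratio of 0.950, at 13.58 against 13.10 to 13.12. The MRE11 level was high on replicate 3, with a ratio of 0.890, at 10.51 against 9.81 to 9.88. The distance of IKBKG, the scaffold subunit NEMO, was high on replicate 1, with a ratio of 0.883, at 2.41 against 1.13 to 1.28 on the others.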

How the results depend on the processing

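Across the alternatives, the choice of baseline moved the calls most. Detected members numbered 2 with mean plus 3 SD, 9 without the control genes SPATA5 and SPATA13, 8 with olfactory receptor controls at mean plus 2 SD, 8 at their 95th percentile and 8 with median plus 2 scaled MAD. Members called by limma numbered 2 with 3 SD, 8 without SPATA5 and SPATA13, 7 and 8 with the olfactory receptor controls. Leaving out 1 array kept 5 members detected and gave 4 to 5 limma calls, the fifth being MAVS without replicate 3. With 3 SD, IFIH1 fell to -0.011, MAVS to -0.69 and IRF3 to -0.067. With 1 SD, IKBKE rose to 0.030 and IRF7 to 0.040. Without SPATA5 and SPATA13, RIGI came to 0.000274, DHX58 to 0.77, IKBKE to 1.04 and IRF7 to 1.05. With olfactory receptor controls at 2 SD, DHX58 came to 0.53, IKBKE to 0.80 and IRF7 to 0.81; at the 95th percentile, to 0.66, 0.93 and 0.94; with scaled MAD, to 0.15, 0.42 and 0.43. These shifts follow from the height of the baseline, which ran from 7.78 to 11.42 as a mean of 4 arrays. Of the values for single genes under all alternatives, 158 stayed on the same side of the baseline and, where tested, of the test's threshold. Another 18 changed side of the baseline, and some of these changed limma call as well. Without SPATA5 and SPATA13, limma called DHX58, IKBKE and IRF7 (adjusted p = 0.0084, 0.00034 and 0.00086). With 3 SD, IFIH1 and IRF3 lost their call. Among values that kept their side of the baseline, 6 passed the threshold newly (all MAVS) and 1 lost it (IFIH1 on replicates 3 and 4 alone). The single IRF7 targets were not tested by limma. No paired analysis was possible because there was 1 group.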
